A study of Saccharomyces cerevisiae BY4741 with 4 samples.

Results

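The genes described here encode the enzymes and regulators with which budding yeast makes fatty acids, phospholipids, storage lipids and sphingolipids. They were chosen by name, without ergosterol genes: 58 genes were listed, and 57 of them had an H3K4me3 level in both strains, out of 5038 genes with both levels in the table. The remaining one, INO1, was not analysed here. H3K4me3, histone H3 trimethylated on lysine 4, was profiled by ChIP-seq (chromatin immunoprecipitation followed by sequencing) in log-phase Saccharomyces cerevisiae grown in YPD. The deletion strain, BY4741-spp1Δ, carries spp1D::KanMX6, a drug resistance cassette in place of SPP1. The wild type is BY4741, labelled MATa with the his3, leu2 and ura3 deletions of that strain. Spp1, a subunit with a PHD finger, belongs to COMPASS, the H3K4 methyltransferase complex of this yeast, and the comparison asks how much of the mark remains without it. Fission yeast cells were added as a spike-in, to which the series text ties the comparability of the strains. With 1 H3K4me3 library from each strain, every difference below stands without replicates, error or p-value.

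Yeast cells build membranes from fatty acids made by acetyl-CoA carboxylase and fatty acid synthase, which are then elongated, desaturated and activated in or near the endoplasmic reticulum. Phosphatidic acid stands at a branch point: through CDP-diacylglycerol it yields phosphatidylserine, phosphatidylethanolamine and phosphatidylcholine, and through diacylglycerol it yields storage lipids. The Kennedy pathway makes phosphatidylcholine and phosphatidylethanolamine from diacylglycerol and free choline or ethanolamine. Transcription of many phospholipid genes is controlled by the activators Ino2 and Ino4 and by the repressor Opi1, which responds to phosphatidic acid and inositol. Sphingolipid synthesis starts from serine and palmitoyl-CoA at an enzyme that the Orm proteins hold in check.

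SPP1 itself, the check of the strain labels, had a level of 0.0982 in the deletion strain and 1.89 in wild type. Across all 5038 genes the median gene kept 26.3% of its wild-type level, and the middle 50% of genes lay between 20.8% and 34.1%. Genes on the left arm of chromosome IV scattered more widely than others, with a standard deviation of log2 ratios of 1.06 against 0.52 over all other genes. Of the 5038 genes, 17 had a higher level in the deletion strain than in wild type, and all 17 lay on that arm. That arm holds 2 of the lipid genes, SLC1 and TSC13, and how its scatter bears on them was not tested. Levels are the authors' normalised signal per gene. The sources used here do not say whether they are per length, so levels are compared between strains and their order between genes is only a description.

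The lipid genes lost about as much H3K4me3 as the genome. All 57 lay below 50% of wild type in the deletion strain, where 93.8% of all genes did, and 27 of the 57 (47.4%) lay below 25%, where 44.6% of all genes did. The count below 25% depends on the processing. It was 4 with a pseudocount of 0.201 added to both levels, 0 with each library scaled to its own sum and 37 after background subtraction. The shares of all genes were 8.30%, 0.0992% and 58.2% in the same order. The median level of the lipid genes was 0.466 in the deletion strain and 1.96 in wild type, and the median gene of the group kept 25.1%, a log2 ratio of -1.99 against -1.93 over all genes. The genes ran from 14.1% for SUR2, the lowest, to 48.8% for INO4, the highest. Of the 57, 14 lay below the middle 50% of all genes, 31 within it and 12 above it. After division of each library by its own sum over genes, a scaling that shifts the median log2 ratio of all genes by 1.76, 20 of the 57 (35.1%) lay above wild type, against 38.4% of all genes. Positions relative to other genes do not move with that scaling.

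**Figure D1:**
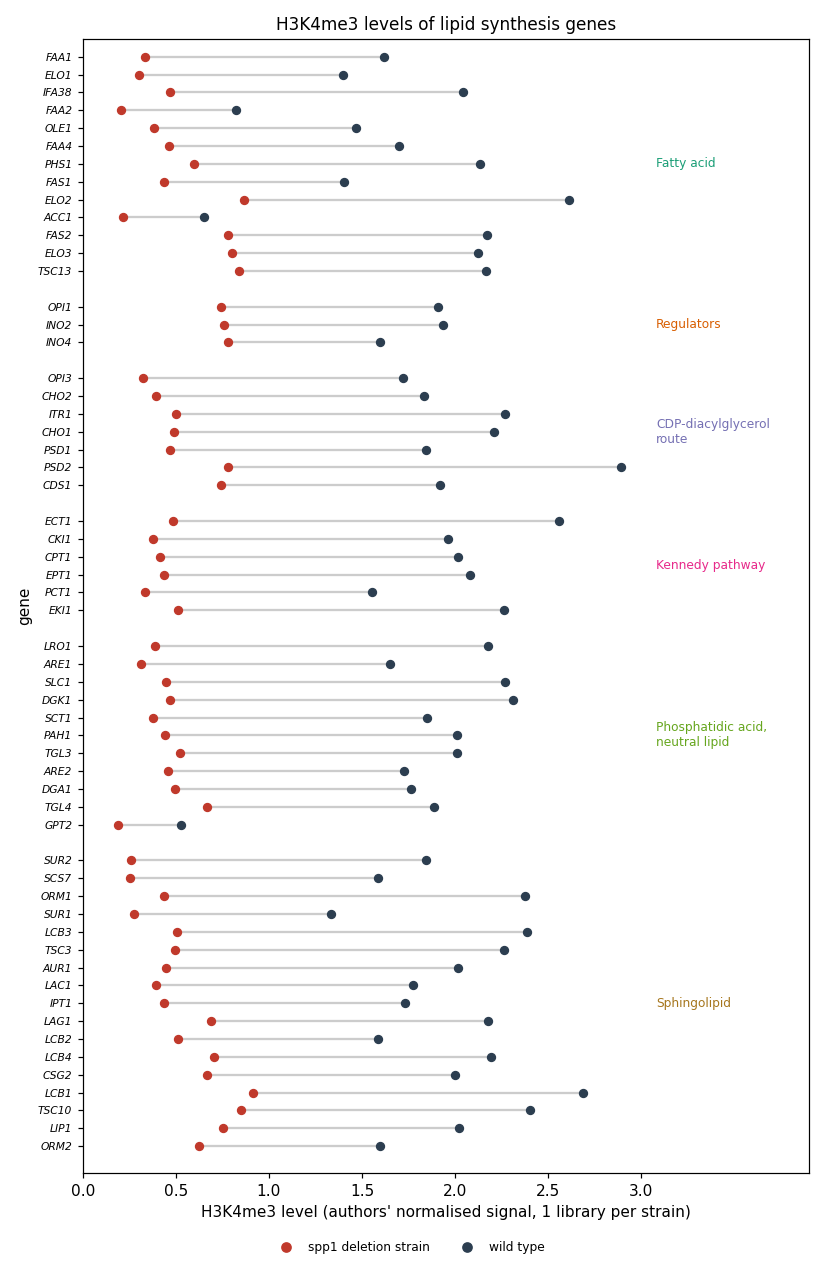
H3K4me3 level (horizontal axis, the authors' normalised signal) of the 57 lipid synthesis genes, with the spp1 deletion strain in red and wild type in dark blue, 1 library each. Genes are grouped by role and ordered within it by the share of the level left; every red point lies left of its blue point, and the red points span 0.191 to 0.914.

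The 3 transcriptional regulators of phospholipid synthesis kept more of the mark than most genes. INO4, which encodes a basic helix-loop-helix activator (YOL108C, chromosome XV), had levels of 0.778 in the deletion strain and 1.59 in wild type, or 48.8%. Its partner gene INO2 (YDR123C, chromosome IV) had levels of 0.756 and 1.93 in the same order, or 39.1%. OPI1, the repressor gene (YHL020C, chromosome VIII), had levels of 0.744 in the deletion strain and 1.91 in wild type, or 38.9%. All 3 lay above the median ratio of all genes, a position that 50% of genes hold by construction, and their median log2 ratio was 0.57 above it. In wild type none of the 3 reached the median level of all genes, 2.01, while in the deletion strain all of them lay above that strain's median of 0.494. After division of each library by its own sum, all 3 lay above wild type, where 38.4% of all genes did.

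**Figure D2:**
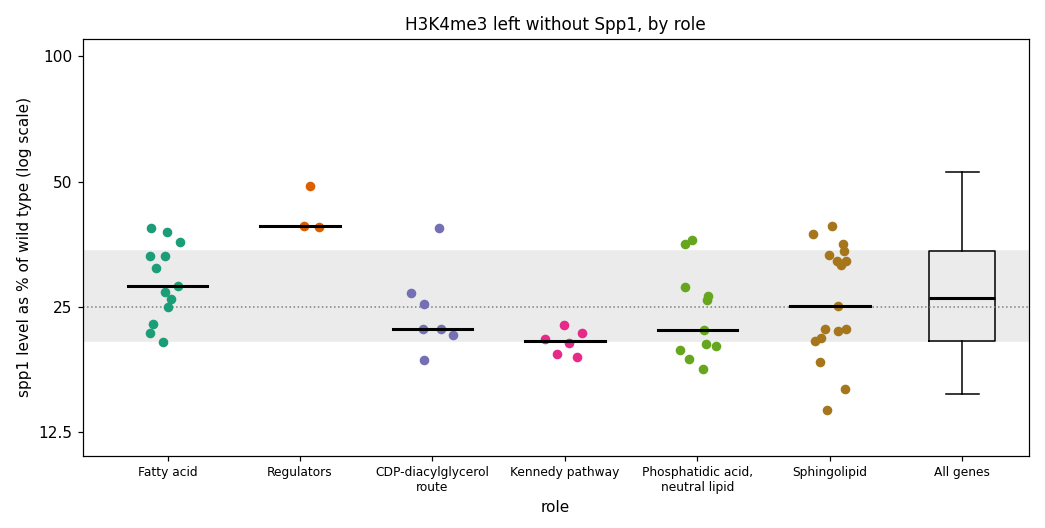
Share of the wild-type H3K4me3 level left in the spp1 deletion strain (vertical axis, percent, log scale) for the lipid genes by role, with all 5038 genes at the right. Points are genes, black bars medians, the grey band the middle 50% of all genes, the box whiskers the 5th to 95th percentiles and the dotted line 25%; the 3 regulators lie above the band and the 6 Kennedy pathway genes lie below the median of all genes.

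Genes of fatty acid synthesis, elongation and activation had a median of 28.1% of wild type, and 3 of the 13 (23.1%) lay below 25%, against 44.6% of all genes. Their median log2 ratio was 0.095 above that of all genes, and 0.17 above it with a pseudocount or without overlapping genes. The low count below 25% holds for the levels as deposited. After background subtraction ACC1, OLE1, ELO1, IFA38, FAA1, FAA2 and FAA4 all lay below 25%, where 58.2% of all genes did. ACC1, the acetyl-CoA carboxylase gene, had low levels in both strains, 0.215 in the deletion strain and 0.648 in wild type, or 33.2%. FAS1 and FAS2, which encode the subunits of fatty acid synthase, lay at 31.1% (0.436 in the deletion strain against 1.40 in wild type) and at 35.9% (0.780 against 2.17). OLE1, the acyl-CoA desaturase gene, lay at 26.1%, with 0.383 in the deletion strain and 1.47 in wild type. None of these 4 genes lay below 25% as deposited; with the 1st percentile of each library subtracted as background, ACC1 lay at 23.3% and OLE1 at 21.2%.

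Of the elongase genes, ELO2 and ELO3 lay close to each other and ELO1 lower. ELO2 and ELO3, whose products make very long chain fatty acids, kept 33.1% (0.864 in the deletion strain, 2.61 in wild type) and 37.8% (0.802 against 2.12). ELO1, whose product elongates medium chains, kept 21.6%, with 0.302 in the deletion strain and 1.40 in wild type. Genes of the later steps of the elongation cycle ran from 22.8% to 38.7%, an upper end that rests on TSC13 alone. IFA38, the ketoreductase gene, lay at 22.8%, PHS1, the dehydratase gene, at 28.1%, and TSC13, the enoyl reductase gene on the left arm of chromosome IV, at 38.7%. Among the acyl-CoA synthetase genes FAA1 lay at 20.6%, FAA4 at 27.2% and FAA2, whose product acts in peroxisomes, at 25.0%, just above the 25% limit. FAA2 overlaps another annotated gene and had levels of only 0.205 in the deletion strain and 0.822 in wild type; with the same background subtracted it lay at 12.4%.

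The CDP-diacylglycerol route, with the inositol transporter, had a median of 22.1% of wild type, 0.25 below all genes on the log2 scale, and 4 of its 7 measured genes (57.1%) lay below 25%, near the 44.6% of all genes. CDS1, the CDP-diacylglycerol synthase gene at the head of the route, was the highest of these genes at 38.6%, with 0.740 in the deletion strain and 1.92 in wild type. CHO1, the phosphatidylserine synthase gene, kept 22.1% (0.488 in the deletion strain, 2.21 in wild type). The methyltransferase genes that lead from phosphatidylethanolamine to phosphatidylcholine were lowest: CHO2 lay at 21.5% (0.393 against 1.83) and OPI3 at 18.7% (0.321 against 1.72). PSD1, the mitochondrial phosphatidylserine decarboxylase gene, lay at 25.4%. PSD2, its counterpart in the endomembrane system, had the highest wild-type level of all 57 genes, 2.89, with 0.781 in the deletion strain, and lay close to PSD1 in ratio at 27.0%. ITR1, the inositol transporter gene, lay at 22.1%, with 0.501 in the deletion strain and 2.27 in wild type.

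In the Kennedy pathway all 6 genes lay below 25% of wild type, where 44.6% of all genes did. With a pseudocount only ECT1, at 24.8%, stayed below 25%, where 8.30% of all genes did. The other Kennedy genes then lay between 26.8% and 30.6%. As deposited the 6 genes covered only 18.9% to 22.7%. Their standard deviation of log2 ratios over genes was 0.098, against 0.40 over all 57 lipid genes. On the choline branch CKI1, the choline kinase gene, lay at 19.3% (0.379 in the deletion strain, 1.96 in wild type). PCT1, the gene of the step that makes CDP-choline, lay at 21.6% (0.336 against 1.56), and CPT1, the cholinephosphotransferase gene, at 20.5% (0.413 against 2.02). The ethanolamine branch lay in the same narrow range. There EKI1, the ethanolamine kinase gene, kept 22.7% (0.513 in the deletion strain, 2.27 in wild type), ECT1 kept 18.9% (0.484 against 2.56) and EPT1 kept 20.9% (0.435 against 2.08). Wild-type levels within this pathway spread from 1.56 to 2.56, so the ratios were more alike than the levels. The pathway's median log2 ratio was 0.35 below that of all genes (difference -0.35).

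Genes of phosphatidic acid and neutral lipid metabolism had a median of 22.1%, and 6 of 11 (54.5%) lay below 25%, against 44.6% of all genes. Their difference from all genes was -0.25 on the log2 scale, and -0.13 without the left arm of chromosome IV or -0.14 without overlapping genes. The glycerol phosphate acyltransferase genes differed: SCT1 lay at 20.4% (0.376 in the deletion strain, 1.85 in wild type), and GPT2 lay at 36.3% (0.191 against 0.526). GPT2 had the lowest level of the 57 genes in both strains, so its ratio compares low values; with the 1st percentile of each library subtracted as background it was 25.7%. SLC1, the lysophosphatidate acyltransferase gene on the left arm of chromosome IV, lay at 19.7%. PAH1 and DGK1 encode the phosphatase and the kinase that convert phosphatidic acid and diacylglycerol into each other. PAH1 lay at 22.1% (0.443 in the deletion strain, 2.01 in wild type) and DGK1 at 20.1% (0.466 against 2.31). PAH1 and DGK1 thus had close ratios, while LCB4 and LCB3, also genes of an opposing kinase and phosphatase, lay at 32.3% and 21.1%.

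Of the storage lipid genes, LRO1 and DGA1 encode the acyltransferases for triacylglycerol. LRO1 was the third lowest of the 57 genes at 17.8% (0.386 in the deletion strain, 2.18 in wild type), and DGA1 lay at 27.9% (0.492 against 1.76). The sterol acyltransferase genes ARE1, which overlaps another annotated gene, and ARE2 lay at 18.8% and 26.5%. The lipase gene TGL3 lay at 25.9% and TGL4 at 35.5% (0.669 in the deletion strain, 1.89 in wild type). From the list of other lipid genes, and named after their values were seen, the lipase genes TGL5 and TGL1 lay at 24.7% and 21.5%.

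Sphingolipid genes had the widest spread of the roles, a standard deviation of log2 ratios of 0.45 over 17 genes, and their median equalled that of all lipid genes, 25.1%. The genes for the catalytic subunits of serine palmitoyltransferase, the entry enzyme, kept 34.0% for LCB1 (0.914 in the deletion strain, 2.69 in wild type) and 32.2% for LCB2 (0.509 against 1.58). TSC3, which encodes a small activating subunit of the same enzyme, kept 21.9% (0.495 in the deletion strain, 2.26 in wild type). TSC10, the gene of the next reductase, lay at 35.4%. The hydroxylase genes were the lowest of all 57. SUR2, which encodes the hydroxylase of sphingoid bases (YDR297W, chromosome IV), had levels of 0.261 in the deletion strain and 1.84 in wild type, or 14.1%. It was the only lipid gene below the 5th percentile of all genes, 15.5%. SCS7, which encodes the hydroxylase of the ceramide fatty acid (YMR272C, chromosome XIII), had levels of 0.252 and 1.59 in the same order, or 15.9%.

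At the ceramide synthase step, LAG1 and LIP1 lay above the median of all genes and LAC1 below it. LAG1 kept 31.6% (0.687 in the deletion strain, 2.18 in wild type), LIP1, the gene of the regulatory subunit, 37.3% (0.754 against 2.02), and LAC1 22.2% (0.393 against 1.77). Further on, AUR1, which encodes inositol phosphorylceramide synthase, lay at 22.2%, SUR1 at 20.7%, its partner CSG2 at 33.3% and IPT1 at 25.1%. LCB4, a sphingoid base kinase gene, lay at 32.3% (0.707 in the deletion strain, 2.19 in wild type), and LCB3, the gene of the opposing phosphatase, at 21.1% (0.503 against 2.39). LCB5, the other kinase gene, from the list of other lipid genes and named after its value was seen, lay at 18.5%. The inhibitors of serine palmitoyltransferase were far apart: ORM1 (YGR038W, chromosome VII) lay at 18.4% (0.438 in the deletion strain, 2.38 in wild type) and ORM2 (YLR350W, chromosome XII) at 39.0% (0.622 against 1.60). ORM1 had the higher level in wild type and the lower level in the deletion strain.

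Genes known as targets of Ino2 and Ino4 cut across the roles. Of 14 listed, 13 were measured, and their median was 22.7% of wild type, 0.22 below all genes on the log2 scale (difference -0.22). Of the 13, 7 (53.8%) lay below 25%, against 44.6% of all genes. Of these genes CHO1, CHO2, OPI3, ITR1, CKI1, CPT1 and EKI1 lay at or below 22.7%, while PSD1 lay at 25.4% and FAS1, ACC1, FAS2, CDS1 and INO2 at 31.1% or above. The other 44 lipid genes had a median of 25.5%.

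Pairs of isozymes, subunits or counterparts on parallel branches, such as PCT1 and ECT1, were set side by side to see whether related genes kept like shares. The 12 pairs differed by a median of 0.22 on the log2 scale, against 0.41 over all 1596 possible pairs of lipid genes. Of the 12, 7 lay within 1.2-fold of each other as deposited, and which pairs did so depends on the processing. After background subtraction CKI1 and EKI1 (difference -0.41) and FAS1 and FAS2 (-0.34) lay outside that limit. With the pseudocount PCT1 and ECT1 (0.30) lay outside it, and FAA1 and FAA4 (-0.25) came within it. Both genes of a pair belong to the same role, while the 1596 pairs also cross roles, so the comparison does not separate relatedness from role. CKI1 and EKI1, PCT1 and ECT1, and CPT1 and EPT1 are among the 7. They lie in the Kennedy pathway, where all ratios were close (standard deviation 0.098). CPT1 and EPT1 differed by only 0.029 (difference -0.029), and LCB1 and LCB2 by 0.080 although their wild-type levels were 2.69 and 1.58. At the other end, ORM1 lay 1.08 below ORM2 (difference -1.08), SCT1 0.83 below GPT2 (-0.83), ARE1 0.50 below ARE2 (-0.50), and LAG1 lay 0.51 above LAC1. Each of these 4 differences kept its sign with the pseudocount and after background subtraction. For ORM1 and ORM2 it was -0.89 and -1.42 in that order. The other processing alternatives leave a difference within a pair unchanged by construction, or drop the pair. The sources used here do not say how reads shared between similar copies were assigned.

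**Figure D3:**
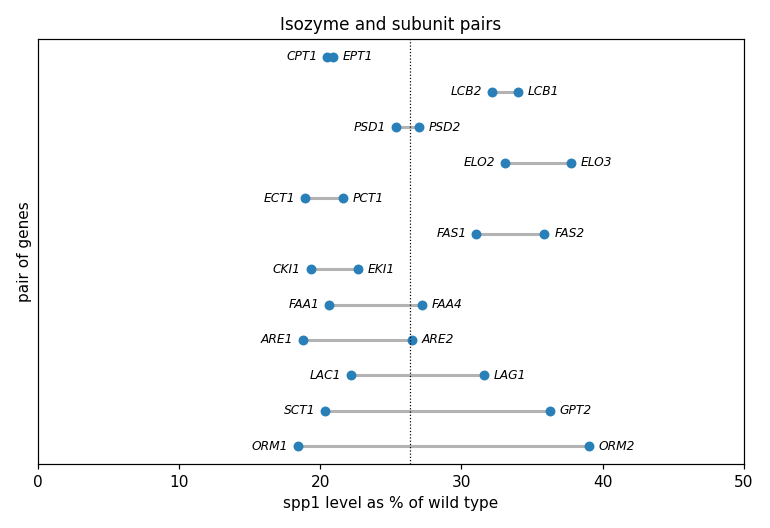
Share of the wild-type H3K4me3 level left in the spp1 deletion strain (horizontal axis, percent) for 12 pairs of isozyme, subunit or counterpart genes, 1 pair per row, ordered from the most alike to the least. The dotted line is the median of all genes, 26.3%; CPT1 and EPT1 nearly coincide, and ORM1 and ORM2 lie at 18.4% and 39.0%.

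Among lipid genes the share of the mark that was left showed little relation to the wild-type level. Across the 57 genes the Spearman correlation between log2 ratio and wild-type level was -0.050, against 0.22 across all 5038 genes, and with gene length it was 0.011, against -0.11 over the 4938 genes with an annotated length. Genes share both libraries and are not replicates, so these values only describe. Among the 8 lipid genes in the highest of 5 equal classes of wild-type level the median was 23.9%, where all genes of that class had 30.7%. In the class next to the lowest, which held 19 lipid genes, it was 25.4%, where all genes had 22.2%. The lowest wild-type levels belonged to GPT2, ACC1 and FAA2, and the highest to PSD2, LCB1 and ELO2.

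**Figure D4:**
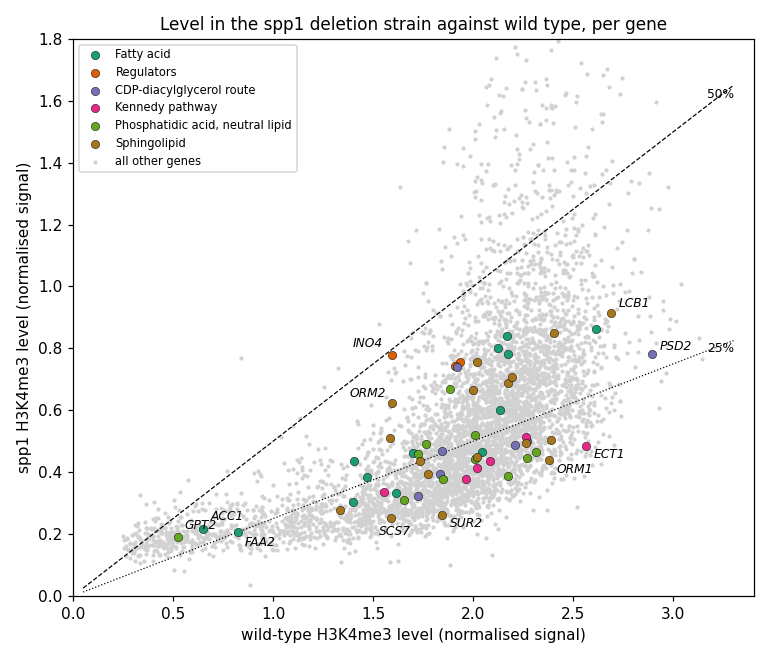
H3K4me3 level in the spp1 deletion strain (vertical axis) against wild type (horizontal axis), both as normalised signal, with lipid genes coloured by role and all other genes in grey. The dashed and dotted lines mark 50% and 25% of wild type; all 57 lipid genes lie under the dashed line, and 23 other genes with deletion-strain levels above the plotted range are not shown.

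Many yeast genes share an upstream region with a neighbour transcribed the other way, so the lipid genes were compared with such divergent neighbours. Of the 57 genes, 26 (45.6%) had a divergent protein-coding neighbour within 1000 bp, against 42.8% of all genes. Their median was 24.2% of wild type, and that of the other 31 was 25.1%. In 24 of the pairs both genes had levels in both strains, and in 15 of these (62.5%) the genes lay on opposite sides of the median ratio of all genes. Over all genes with such a neighbour the share was 45.1%, each pair being counted from both genes. The Spearman correlation over the 24 pairs was -0.29, against 0.12 over all genes. Without the pairs of the left arm of chromosome IV it was -0.42 over 22 pairs. Both are descriptions of few pairs.

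The 3 lipid genes that kept most of the mark lay beside genes that kept less than most. INO4 at 48.8% had the neighbour YOL107W at 16.6%, with 0.321 in the deletion strain and 1.94 in wild type. INO2 at 39.1% had the neighbour YDR124W at 20.7% (0.245 against 1.19), and ORM2 at 39.0% had DIC1, a mitochondrial dicarboxylate carrier gene, at 18.6% (0.239 against 1.28). LRO1 at 17.8% had ATG3, an autophagy gene, at 21.3% (0.390 against 1.83). SUR2 had no divergent neighbour, and that of SCS7 was not analysed here. Named after their values were seen, ORM1 at 18.4% lay beside ACB1, the acyl-CoA binding protein gene, at 37.7%. LCB3 at 21.1% lay beside the ribosomal protein gene RPS21B at 64.1%, and GPT2 at 36.3% beside CCP1 at 10.1%. These were chosen as contrasts, and other pairs were close. CKI1 at 19.3% lay beside USB1 at 19.5%, and ELO1 at 21.6% beside CDC6 at 21.7%. As given above, 15 of the 24 pairs lay on opposite sides of the median of all genes.

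**Figure D5:**
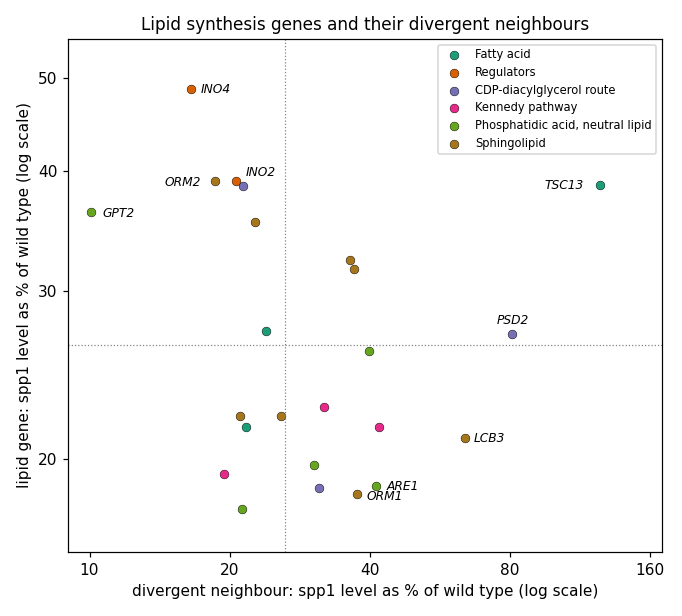
Share of the wild-type H3K4me3 level left in the spp1 deletion strain for 24 lipid genes (vertical axis, percent, log scale) and for the divergent neighbour of each (horizontal axis, percent, log scale), coloured by role. Dotted lines mark the median of all genes; INO4, INO2 and ORM2 lie at the upper left, with low neighbours, and TSC13 lies at the far right beside NOP1 at 125.1%, both on the left arm of chromosome IV.

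Other genes of lipid metabolism were taken from a list of 42, of which 40 had both levels. FAA3 and MGA2, on chromosome IX, had a level in wild type only. As deposited, the median of the 40 genes was 22.6% of wild type. Of these 40, 27 (67.5%) lay below 25%, against 44.6% of all genes. All 40 lay below 50%, where 93.8% of all genes did. This list was not recomputed under the other settings. The share below 25% depends on them: with the pseudocount it was 8.30% over all genes. The lowest were LPP1, a lipid phosphate phosphatase gene, at 13.6% (0.259 in the deletion strain, 1.90 in wild type), and YPK2, a kinase gene of sphingolipid signalling, at 14.2% (0.221 against 1.56). The highest were ACB1 at 37.7% (0.827 against 2.20) and MCT1, a gene of mitochondrial fatty acid synthesis, at 37.2% (0.798 against 2.15). URA7, a CTP synthetase gene, stood at the top of the list in wild type, with a level of 0.629 in the deletion strain and 2.73 in wild type. Another gene outside the list had these same levels in both strains, so the value may not belong to URA7 alone.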

How the data were processed

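H3K4me3 was measured in log-phase yeast after micrococcal nuclease treatment of nuclei, with fission yeast cells added at 25% by volume, per the labels' protocols. Of the series' 4 libraries, the deposited table gives levels for 2, the H3K4me3 libraries of the spp1 deletion strain and of wild type. The wild-type input and a second spp1 library, titled without an assay, were not used here. The levels are a linear signal that the authors normalised, with 1 value per gene and library, per the file headers. Bowtie2, SAMtools and bedtools were used with sacCer3 and ASM294v2, per the submitters' processing notes. The sources used here do not give the gene window, the use of the input or the depth, so no counting interval is given. A lost or gained nucleosome and a change in its methylation cannot be told apart in these levels.

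The table held 5219 genes, 3 of its lines having been emptied for this work. Symbols and gene positions came from RefSeq (assembly R64) by systematic name, with 5116 matches. Strand was read from the systematic name. For each gene log2 of the deletion strain's level over the wild-type level was computed, with no pseudocount or floor (Python 3.11.15, pandas 2.3.3). Groups are described by counts below 25% and 50% of wild type and by medians, beside the same over all genes. Role groups, the Ino2-Ino4 target list, pairs and other lipid genes were lists written from textbook knowledge. The members and lists were chosen with earlier results of these data known. Any listed gene may be named. Of other genes, SPP1, the extremes of the list of other lipid genes and divergent neighbours of extreme genes are named. TGL1, TGL5 and LCB5 and the neighbours RPS21B, CCP1, NOP1, USB1 and CDC6 are named outside that rule. The calculation was tested on simulated levels. A search of promoter windows for the Ino2-Ino4 element was planned and not done, since no sequence was used here.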

Additional observations from a re-analysis of the deposited data

How the results depend on the processing

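The median log2 ratio of the lipid genes, -1.99 as deposited, was -1.61 with a pseudocount (10% of the median level in wild type), -0.23 after division of each library by its own sum and -2.26 with the 1st percentile of each library subtracted as background. Of the 57 genes, 4 lay below 25% of wild type with the pseudocount, 0 with own-total scaling and 37 after background subtraction. Of all genes, 8.30%, 0.0992% and 58.2% did under the same settings. With own-total scaling 1 of the 57 lay below 50%, where 3.31% of all genes did. The cause was not tested beyond what these settings do to every gene. The difference of the lipid genes from all genes, -0.068, stayed between -0.11 and -0.046 under the 7 alternatives, though own-total scaling cannot move it. That of the regulators was 0.41 with the pseudocount, and that of the Kennedy pathway -0.49 after background subtraction; the 3 regulators lay above and the 6 Kennedy genes below the median of all genes under all 7. The difference ran from 0.073 to 0.17 for fatty acid genes, from -0.32 to -0.13 for phosphatidic acid and neutral lipid genes, from -0.27 to -0.21 for the CDP-diacylglycerol route, from -0.093 to -0.035 for sphingolipid genes and from -0.22 to -0.21 for the Ino2-Ino4 targets, with no change of sign. The other alternatives were a floor on the wild-type level at its 10th percentile, leaving out chromosome IV left or overlapping genes, and counting identical levels once. With 1 library per strain and no depth, none of these settings stands in for a replicate. No paired analysis was possible because each strain had 1 library.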
